A study of Mus musculus with 24 samples.

Results

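The 38 genes described here encode enzymes and carriers of the citrate cycle, of the NADH shuttles and of NAD metabolism, and they were taken from a given list of symbols. The deposited table holds 43430 genes, and all 38 were found in it by Ensembl identifier and passed the filter on low counts, as did 15300 genes in all. By role, 14 belong to the citrate cycle, 10 to the malate-aspartate and glycerol phosphate shuttles, 7 to the synthesis of NAD and NADP, and 7 to enzymes that use NAD.

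Messenger RNA was sequenced from whole cerebellum of 24 mice of 7 weeks, 1 library per mouse, in 4 genotype groups of 3 males and 3 females. The Cre control mice serve as the control for Cre, and the NDI1 control mice carry NDI1, a yeast enzyme that oxidises NADH without pumping protons. In cKO mice a conditional knockout disables complex I, the NADH-oxidising entry of the respiratory chain, and cKO+NDI1 mice have this knockout and NDI1 together. The labels name neither the gene removed, nor the promoter that drives Cre, nor whether the NDI1 control carries Cre. The study is known to have removed Ndufs4, a complex I subunit, from the brain with a Nestin-driven Cre, a promoter active in the precursors of neurons and glia, so cells of other origin, such as microglia, are expected to keep the gene.

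Library totals ran from 7584374 to 19785264 counts and averaged 11619939 in cKO against 15939006 in Cre control. Levels are given as CPM, counts scaled to a fixed total on TMM library sizes. Ndufs4, counted over the whole gene and so including exons outside the deleted part, stood at 134 ± 23.6 CPM in Cre control, 144 ± 41.8 in NDI1 control, 95.4 ± 21.5 in cKO and 101 ± 15.1 in cKO+NDI1 (mean ± SD, n = 6 each), with overlapping groups. Cerebellar markers were abundant in every group: the summed level of 6 granule neuron genes ran from 4941 to 5618 CPM and that of 5 Purkinje genes from 7850 to 9777 CPM over the libraries.

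The citrate cycle oxidises acetyl groups in mitochondria and hands the electrons to NAD, forming NADH, which complex I normally turns back into NAD. NADH made by glycolysis in the cytosol cannot cross the inner mitochondrial membrane, so the malate-aspartate shuttle and the glycerol phosphate shuttle carry its electrons across instead. NAD itself is rebuilt from nicotinamide and is consumed by sirtuins, by poly-ADP-ribose polymerases and by the NAD hydrolases Cd38 and Sarm1. The comparisons therefore ask whether the RNA of these enzymes differed where complex I was impaired, and whether it differed again where NDI1 was present.

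Regulatory letters near the start sites are shown first, because NRF1, a factor known for driving nuclear genes of mitochondria, recognises GCGC, then any base, then TGCGC. RefSeq windows of 300 bases (250 before to 50 after a start; build GRCm38.p6) were available for 34 of the 38 genes, in 46 windows. On either strand, the NRF1 letters were found in 4 of the 46 windows (8.7%) and in 4.6% of all 32851 windows. The 4 genes were Dld, Sucla2, Nadk and Nampt. The letters of a cyclic AMP response element, TGACGTCA, were found in 4 member windows of 2 genes (Mdh2 and Ogdh) and in 1.79% of all windows. Most of these 4 windows were of Ogdh, and windows of the same gene can overlap, so a site can be counted more than once. The 4 genes with NRF1 letters are printed below, and Mdh2 is added for the cyclic AMP letters. Each stretch is given 5′ to 3′ on the gene's strand, 30 bases, with the matching letters in capitals.
Dld (chr12:31351422-31351451, minus strand): cggcgatgacgtatatgttGCGCAGGCGCa
Sucla2 (chr14:73552759-73552788, plus strand): ctgcgtctctGCGCCTGCGCggtgcccagg
Nadk (chr4:155563795-155563824, plus strand): cgtgcgggctGCGCTTGCGCactgacagcc
Nampt (chr12:32820276-32820305, plus strand): cccctgcgctGCGCACGCGCagccgtgccc
Mdh2 (chr5:135778511-135778540, plus strand): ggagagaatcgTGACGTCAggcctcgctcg
In GENCODE M21 the stretches of Dld, Sucla2, Nadk and Mdh2 lie in an untranslated first-exon part of at least 1 transcript, and that of Nampt lies outside annotated exons. The ETS letters CCGGAAG were found in 6 member windows of 5 genes (Dlst, Idh3b, Idh3g, Nmnat1 and Sirt3) against 8.86% of all windows, and the ERR letters TCAAGGTCA in 0 against 0.423%. These are matches of letters and carry no measurement of binding.

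Levels of different genes are compared per length, as RPKM, the CPM divided by the kilobases of annotated exon, averaged over the 24 libraries. Mdh1, the cytosolic malate dehydrogenase, stood at 367 RPKM, ahead of its partner in the shuttle, the cytosolic aspartate aminotransferase Got1, at 148 RPKM. The NAD-dependent isocitrate dehydrogenase subunit Idh3b followed at 116 RPKM and the mitochondrial malate dehydrogenase Mdh2 at 111 RPKM. This order depends on the length used: by the principal coding transcript Mdh1 again led (444 RPKM), followed by Mdh2 (271), Idh3b (246) and Got1 (182), and the last 2 genes were the same. At the other end were Nmnat3, a mitochondrial enzyme of NAD formation, at 0.358 RPKM, and the aspartate-glutamate carrier Slc25a13 at 1.38 RPKM. In reads, the members were mostly abundant: 30 of 38 were above the median of all genes tested (24.9 CPM), and their own median was 151 CPM.

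**Figure D1:**
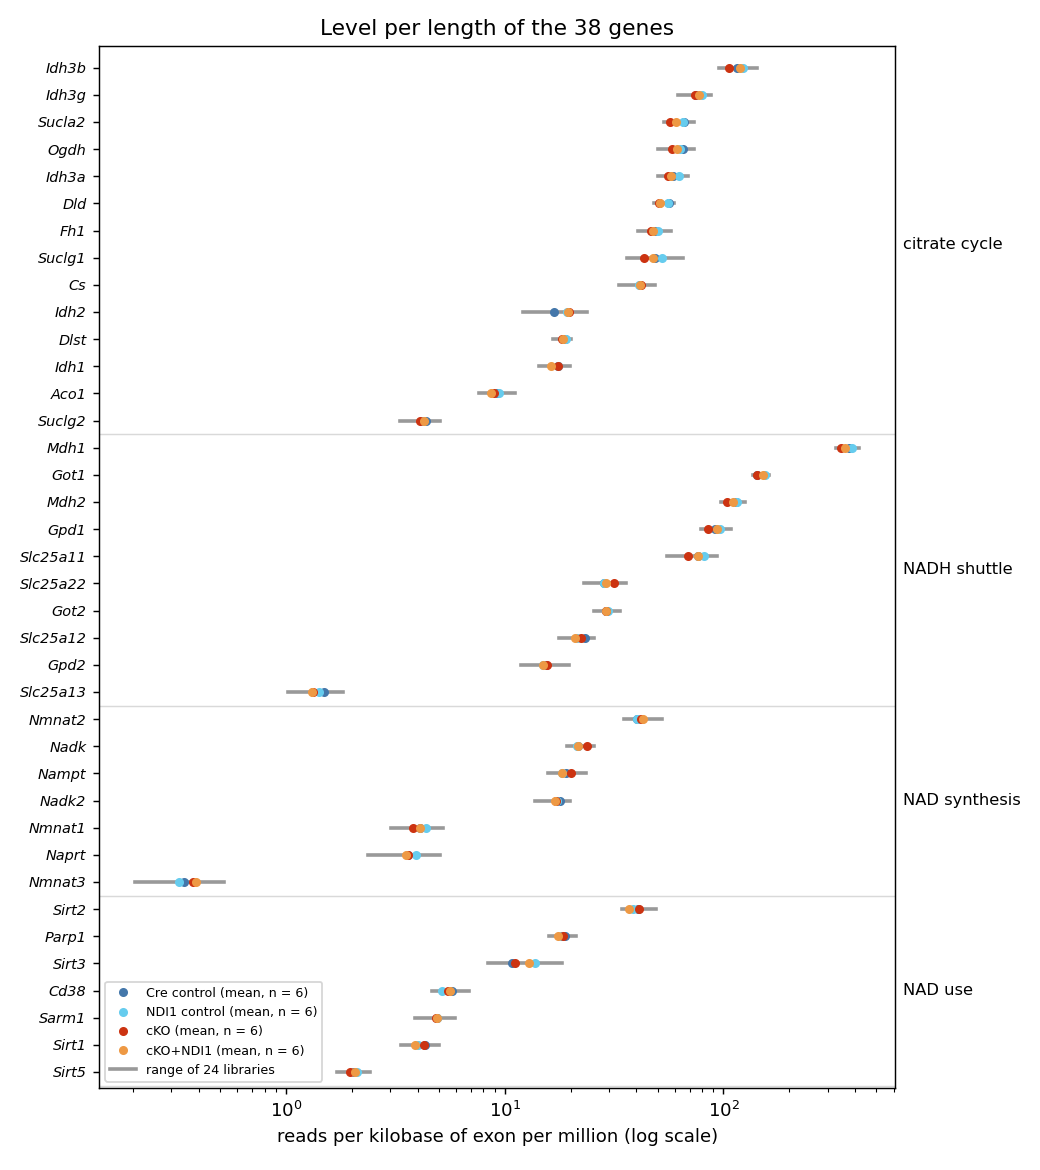
Level per length of the 38 genes in RPKM (log axis), by role; dots are group means (n = 6) and grey lines the range of the 24 libraries. The group means of a gene lie close together, while genes differ from 367 RPKM (Mdh1) to 0.358 RPKM (Nmnat3).

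Where 2 genes encode versions of the same step, 1 was usually dominant in cerebellar RNA. The succinyl-CoA ligase subunit that makes ATP, Sucla2, exceeded the GTP-forming Suclg2 by a median of 15.1 times (11.9 to 17.3 over the 24 libraries). The aspartate-glutamate carrier Slc25a12 exceeded its paralogue Slc25a13 by 16.2 times (12.2 to 20.4). Among the enzymes that form NAD from nicotinamide mononucleotide, the axonal and Golgi-associated Nmnat2 exceeded the nuclear Nmnat1 by 10.2 times (6.68 to 17.4) and Nmnat3 by 121 times (78.7 to 201). In all 24 libraries the first gene of each of these pairs was the higher.

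Within the sirtuins, which remove acyl groups at the cost of NAD, the cytosolic Sirt2 led: it exceeded the nuclear Sirt1 by a median of 9.52 times, the mitochondrial Sirt3 by 3.33 times and Sirt5 by 18.9 times, in 24 of 24 libraries each. The cytosolic enzymes of the shuttles exceeded the mitochondrial ones, Mdh1 over Mdh2 by 3.32 times, Got1 over Got2 by 5 times and the glycerol-3-phosphate dehydrogenase Gpd1 over Gpd2 by 6.11 times. The NADP-dependent isocitrate dehydrogenases were nearly level, with mitochondrial Idh2 at 1.06 times cytosolic Idh1 (0.656 to 1.5) and above it in 17 of 24 libraries. These ratios depend on the length used: with the principal coding transcript, Mdh1 over Mdh2 became 1.64, Sirt2 over Sirt1 became 21.6, Nmnat2 over Nmnat3 became 65.6, Nmnat2 over Nmnat1 became 5.81, and Idh2 was above Idh1 in 23 libraries. The catalytic Idh3a was below both other subunits of its enzyme, at 0.505 of Idh3b and 0.757 of Idh3g.

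In cKO against Cre control, none of the 38 genes passed an adjusted p of 0.05 in edgeR's quasi-likelihood test, where 4.87% of all genes tested did (745 of 15300). At an unadjusted p under 0.05 there were 8 of 38 members (21.1%; 3 higher, 5 lower), against 18.5% of all genes. limma-voom also called 0 members (4.85% of all genes), and DESeq2 called 2 (5.26%), Dld and Sucla2, both lower, where it called 7.56% of all genes. The differences were small: the median size of a member's log2 fold change was 0.07, against 0.12 over all genes. The 95% interval of every member lay within a 1.5-fold change in either direction, which held for 77.8% of all genes, and that of 25 of 38 lay within 1.2-fold (24% of all genes). No member had groups that did not overlap, against 2.69% of all genes. A difference of at least 1.5-fold in tissue RNA therefore lies outside the interval of each of the 38 genes. For 25 of them a difference of at least 1.2-fold does too. The intervals of the others hold some differences between 1.2-fold and 1.5-fold, and still smaller differences can lie inside any of the intervals. In bulk tissue, fewer cells of a type and less RNA per cell cannot be told apart.

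**Figure D2:**
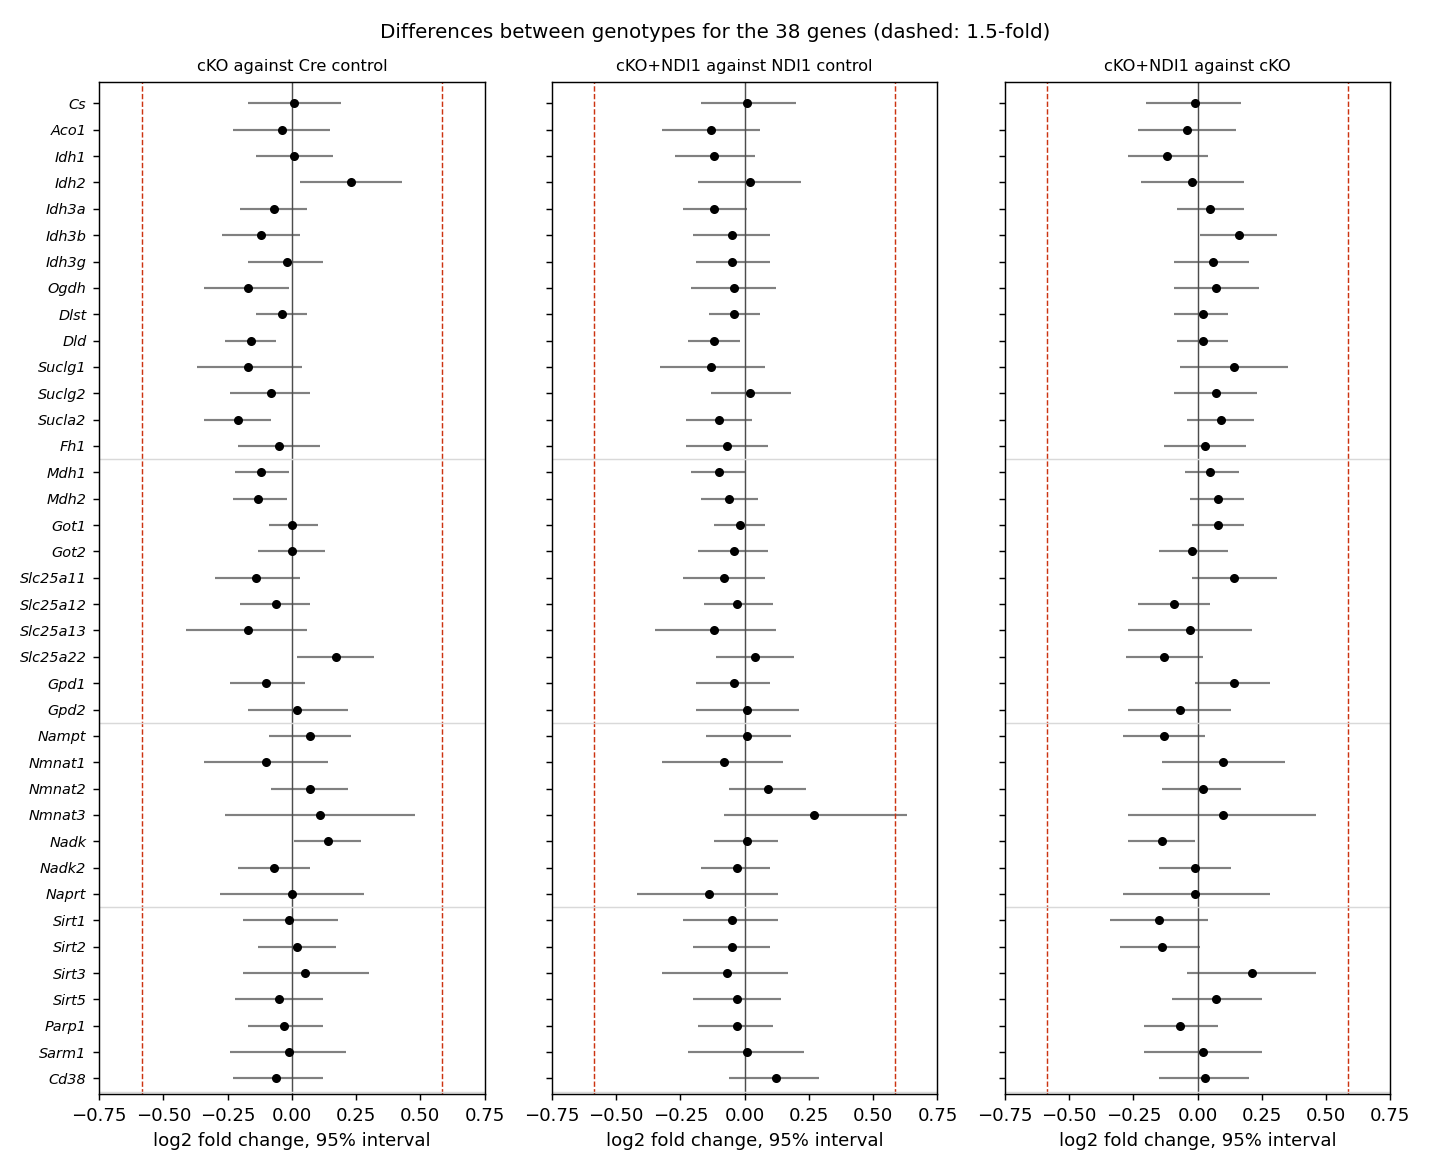
Log2 fold changes of the 38 genes with 95% intervals in 3 comparisons, grouped by role (grey lines); dashed lines mark a 1.5-fold change. All intervals lie inside the dashed lines except that of Nmnat3 in cKO+NDI1 against NDI1 control.

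Among the citrate cycle genes, 11 of 14 had a negative log2 fold change in cKO, with a median of -0.06, beside 51.9% negative and a median of -0.01 over all genes. The member with the smallest p was Dld (chr12:31331564-31351437 in the file), the dihydrolipoamide dehydrogenase shared by the pyruvate and 2-oxoglutarate dehydrogenase complexes, which forms their NADH. In Cre control its lowest, median and highest levels were 194, 208 and 218 CPM, and in NDI1 control 187, 207 and 217 CPM. In cKO they were 177, 187 and 196 CPM, and in cKO+NDI1 180, 187 and 201 CPM. The knockout groups were low and the controls high, with overlapping ranges. The log2 fold change was -0.16 ± 0.05 (SE; adjusted p = 0.0575 in edgeR's test) in cKO against Cre control.

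Sucla2 was named after its values were seen, since DESeq2 called it. Its lowest, median and highest levels were 229, 260 and 288 CPM in Cre control, 228, 256 and 293 CPM in NDI1 control, 212, 223 and 245 CPM in cKO and 231, 239 and 259 CPM in cKO+NDI1. The cKO libraries were at the low end and overlapped both controls. Its log2 fold change in cKO was -0.21 ± 0.06 (adjusted p = 0.0599 in edgeR's test). It passed in 4 of the 24 fits that left out 1 library: without Cre control M1 (adjusted p = 0.0466), Cre control F3 (0.0359), NDI1 control M2 (0.0455) or cKO F2 (0.0353). Dld passed in 1 of them, without cKO+NDI1 F1 (0.0465).

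Of the remaining citrate cycle genes, Ogdh, the first subunit of the 2-oxoglutarate dehydrogenase complex, was at -0.17 ± 0.08 (adjusted p = 0.242) and Suclg1, the common subunit of succinyl-CoA ligase, at -0.17 ± 0.10 (adjusted p = 0.403) in cKO against Cre control. Dlst, the second subunit of the same complex as Ogdh, was at -0.04 ± 0.05, and the citrate synthase Cs, the entry of the cycle, was at 0.01 ± 0.09 with 241 ± 26.9 CPM in Cre control and 242 ± 24.7 CPM in cKO. The 3 Idh3 subunits ran from -0.12 (Idh3b) to -0.02 (Idh3g), the fumarase Fh1 was at -0.05, Suclg2 at -0.08, Aco1 at -0.04 and Idh1 at 0.01. Idh2 went the other way from most, at 0.23 ± 0.10 (adjusted p = 0.186; 0.08 in males alone and 0.36 in females alone). Its lowest, median and highest levels were 31.2, 46.7 and 52.3 CPM in Cre control and 45.1, 51.1 and 58.2 CPM in cKO, and 2 female Cre control libraries were the lowest of all 24.

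The shuttle genes were 6 of 10 negative in cKO, with a median of -0.08. Mdh2 (chr5:135778480-135790398), which reoxidises malate in mitochondria and serves both cycle and shuttle, had lowest, median and highest levels of 360, 413 and 446 CPM in Cre control and 379, 417 and 432 CPM in NDI1 control. In cKO they were 348, 372 and 399 CPM and in cKO+NDI1 375, 388 and 427 CPM. The cKO libraries were low on average and overlapped the controls. Its log2 fold change was -0.13 ± 0.05 (adjusted p = 0.17 in edgeR's test), and that of its cytosolic partner Mdh1 was -0.12 ± 0.05 (adjusted p = 0.207).

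The 2 aminotransferases of the shuttle stood at 0.00 in cKO against Cre control (Got1 ± 0.05, Got2 ± 0.06). The 2-oxoglutarate carrier Slc25a11 was at -0.14 ± 0.08, and the aspartate-glutamate carriers at -0.06 ± 0.07 (Slc25a12) and -0.17 ± 0.11 (Slc25a13). The mitochondrial glutamate carrier Slc25a22 was at 0.17 ± 0.07 (adjusted p = 0.211), with 155, 166 and 195 CPM as its lowest, median and highest in Cre control and 177, 188 and 216 CPM in cKO. The enzymes of the glycerol phosphate shuttle were at -0.10 ± 0.07 (Gpd1) and 0.02 ± 0.10 (Gpd2).

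The NAD synthesis genes were split in cKO, 4 of 7 positive and 3 negative, with a median of 0.07. Nadk (chr4:155562378-155591001), the cytosolic kinase that turns NAD into NADP, had the smallest p of this role. Its lowest, median and highest levels were 72.4, 83.7 and 88.8 CPM in Cre control and 74.3, 81 and 90.1 CPM in NDI1 control. They were 81.3, 89.3 and 96.3 CPM in cKO and 77, 81.1 and 84.1 CPM in cKO+NDI1. The cKO libraries were the highest on average and overlapped each other group. Its log2 fold change was 0.14 ± 0.06 (adjusted p = 0.238 in edgeR's test), -0.00 in males alone and up to 0.26 in other settings of the fit. Nampt, the rate-limiting enzyme of NAD salvage, was at 0.07 ± 0.08, Nmnat2, whose loss is known to start axon degeneration, at 0.07 ± 0.07, and Nmnat3 at 0.11 ± 0.18 on counts as low as 12. Nmnat1 was at -0.10 ± 0.12, the mitochondrial kinase Nadk2 at -0.07 ± 0.07 and the nicotinic acid enzyme Naprt at -0.00 ± 0.14.

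The NAD-using genes were 5 of 7 negative, all between -0.06 and 0.05 in cKO against Cre control. Cd38 (chr5:43868809-43912375), an ecto-enzyme that hydrolyses NAD, had the smallest p of this role. Its lowest, median and highest levels were 19.5, 22 and 25.1 CPM in Cre control, 18.3, 20 and 23.2 CPM in NDI1 control, 18.2, 20.7 and 26.6 CPM in cKO, and 20.7, 21.6 and 24.1 CPM in cKO+NDI1. These groups overlapped over most of their range. Its log2 fold change was -0.06 ± 0.08 (adjusted p = 0.795 in edgeR's test), 0.07 in males alone and down to -0.21 in other settings of the fit. Sarm1, the axonal NAD hydrolase, was at -0.01 ± 0.11, the DNA damage sensor Parp1 at -0.03 ± 0.07, and the sirtuins from -0.05 (Sirt5) to 0.05 (Sirt3).

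**Figure D3:**
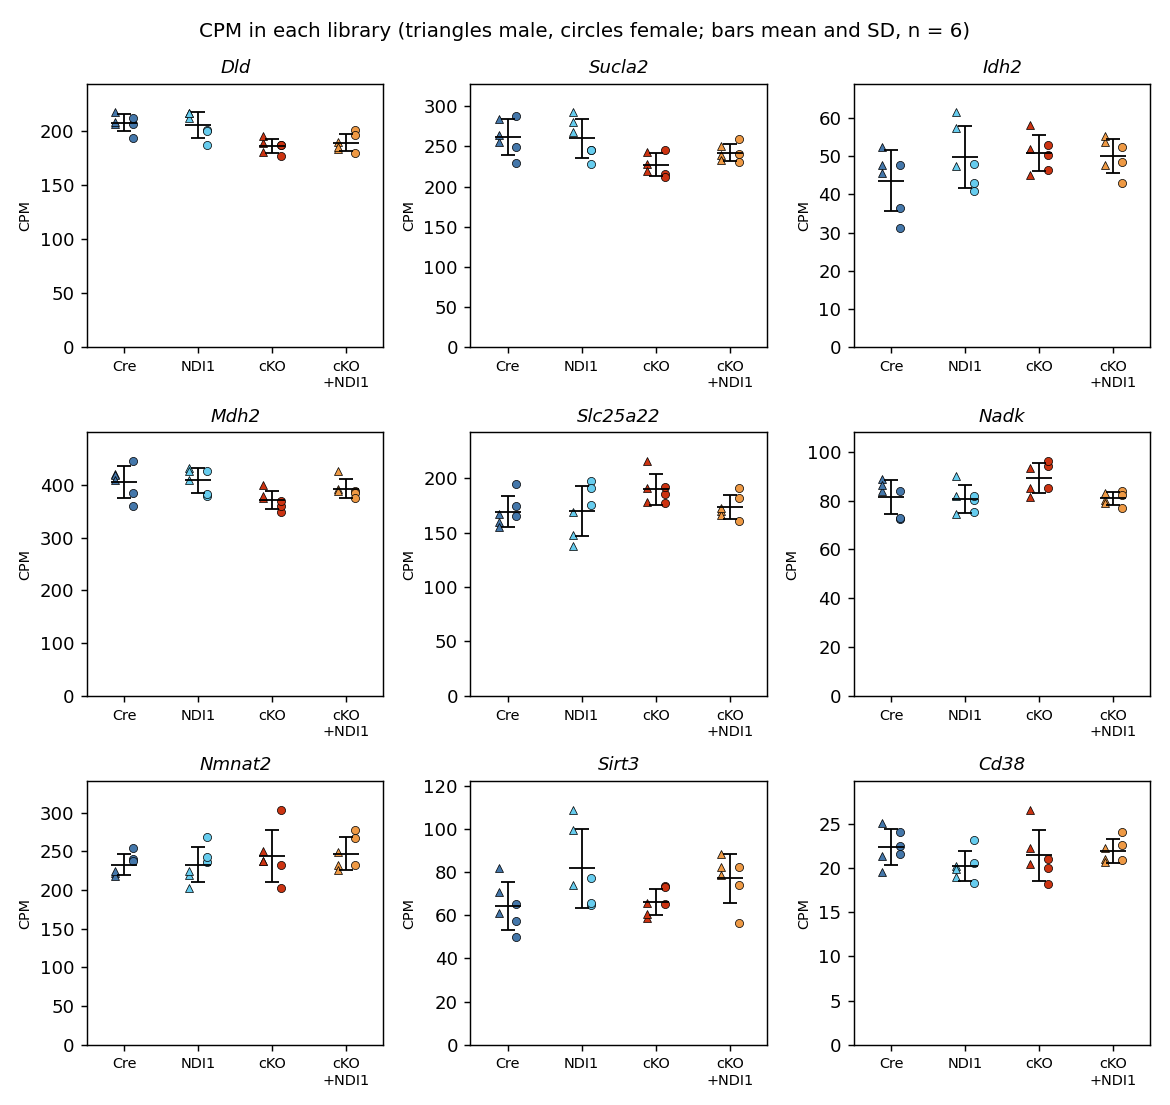
CPM of 9 of the genes in each library (linear axis from 0; triangles male, circles female; bars mean and SD, n = 6). The groups overlap for each gene; for Dld the cKO libraries run from 177 to 196 CPM and the Cre control libraries from 194 to 218 CPM.

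When NDI1 was present with the knockout, differences from cKO were again small. In cKO+NDI1 against cKO, 0 of 38 members passed in edgeR's test, where 0.209% of all genes did, and DESeq2 (0.699% of all genes) and limma-voom (0.163%) called 0 members too. At an unadjusted p under 0.05 there were 2 (5.26%, against 8.56% of all genes): Idh3b at 0.16 ± 0.07 (adjusted p = 0.541) and Nadk at -0.14 ± 0.06 (adjusted p = 0.517). Of the citrate cycle genes, 10 of 14 were positive and 4 negative, with a median of 0.04, where 52.4% of all genes were negative. All 38 intervals lay within 1.5-fold (80.6% of all genes). No member's groups were apart, where 0.954% of all genes had such groups. Dld was at 0.02 ± 0.05 in this comparison. It shares the cKO libraries with the comparison against Cre control, so the values of the 2 comparisons are not independent.

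In cKO+NDI1 against NDI1 control, the knockout's difference with NDI1 in both groups, 0 of 38 members passed in edgeR's test and 0% of all genes did. DESeq2 (0.17% of the 14706 genes to which it gave an adjusted p) and limma-voom (0% of all genes) also called 0 members. Dld was the 1 member at an unadjusted p under 0.05 (4.48% of all genes), at -0.12 ± 0.05 (adjusted p = 0.973). Of the 38, 27 were negative, including 11 of 14 citrate cycle and 8 of 10 shuttle genes, where 53.1% of all genes were negative. The interval lay within 1.5-fold for 37 of 38 (83.3% of all genes), Nmnat3 being the exception with -0.08 to 0.63. No member's groups were apart, against 0.314% of all genes. This comparison shares no library with that of cKO against Cre control, and the log2 fold changes had the same sign in both for 30 of 38 members (78.9%; 22 negative and 8 positive in both), against 65.6% of all genes. By role the count was 12 of 14 in the citrate cycle, 8 of 10 in the shuttles, 7 of 7 in NAD synthesis and 3 of 7 in NAD use. The interaction of knockout and NDI1, which tests whether the knockout's difference changed with NDI1, called 0 members in edgeR, DESeq2 and limma-voom. The share of all genes called was 0% in edgeR and in limma-voom. DESeq2 called 0.103% of the 12630 genes to which it gave an adjusted p. No member had an unadjusted p under 0.05 in edgeR's interaction test, against 5.18% of all genes. The intervals of the interaction were wider, within 1.5-fold for 37 of 38 members (66.4% of all genes).

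In cKO+NDI1 against Cre control, 0 of 38 members passed in edgeR's test and 1.25% of all genes did (191). That count over all genes ranged from 26 without cKO+NDI1 M2 to 279 without Cre control M1, with 0 members called in each fit without 1 library. DESeq2 called 1 member (2.63%), Dld, where it called 3.55% of the genes to which it gave an adjusted p, and limma-voom called 0 (1.38% of all genes). The 4 members at an unadjusted p under 0.05 (10.5%, against 13.5% of all genes) were Idh2 at 0.21 ± 0.10, Sirt3 at 0.26 ± 0.12, Slc25a12 at -0.16 ± 0.07 and Dld at -0.14 ± 0.05, and the smallest adjusted p was that of Dld, 0.183. No member's groups were apart, against 1.58% of all genes. NDI1 control against Cre control compares the 2 groups without the knockout. They may differ in Cre as well as in NDI1, since the labels do not say whether NDI1 control carries Cre. This comparison also called 0 members in edgeR, DESeq2 and limma-voom. The share of all genes called was 0.00654% in edgeR and 0.0196% in limma-voom. DESeq2 called 0.69% of the 11444 genes to which it gave an adjusted p. Sirt3, the main mitochondrial deacetylase, had the smallest p, at 0.34 ± 0.12 (adjusted p = 0.383), with 50.1, 63.2 and 82.1 CPM as lowest, median and highest in Cre control and 64.6, 75.7 and 109 CPM in NDI1 control. Got1 followed at 0.11 ± 0.05 (adjusted p = 0.493), and these were the 2 members at an unadjusted p under 0.05 (5.26%, against 9.2% of all genes). No member's groups were apart, against 0.386% of all genes. Sirt3 shares exon bases with antisense genes, and use of strand in the counting is not given in the sources used here. How reads in the shared bases were assigned, or whether they were left out, is therefore not known. The same holds for Idh3b, Mdh1, Got2, Slc25a11, Gpd1, Gpd2, Sirt1 and Sirt2, while Naprt and Parp1 share bases with a gene on their own strand.

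Summed over the roles, levels were also close. The citrate cycle genes summed to 2687 ± 121 CPM in Cre control, 2757 ± 123 in NDI1 control, 2509 ± 60.4 in cKO and 2625 ± 40 in cKO+NDI1 (mean ± SD, n = 6). The shuttle genes summed to 2751 ± 88.2, 2821 ± 87.2, 2624 ± 36.3 and 2708 ± 44.7 CPM in the same order. Both sums were lowest in cKO and overlapped Cre control, whose lowest libraries were at 2494 and 2616 CPM against highest cKO libraries at 2589 and 2663 CPM. The NAD synthesis sums were 525 ± 9.97, 518 ± 16.8, 544 ± 33.7 and 530 ± 11.3 CPM, and the NAD use sums 454 ± 8.78, 453 ± 9.05, 454 ± 32.3 and 440 ± 13.3 CPM. The share of counts from mitochondrial DNA was 1.89% ± 0.241 in Cre control, 2.26% ± 0.36 in NDI1 control, 2.78% ± 0.499 in cKO and 2.57% ± 0.370 in cKO+NDI1 (SD, n = 6).

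Markers of other cell types differed in some of these comparisons. The 7 astrocyte and Bergmann glia genes summed to 4416 ± 157 CPM in Cre control and 3853 ± 203 in cKO, with non-overlapping ranges of 4214 to 4620 and 3575 to 4087 CPM, and 2 of the 7, Slc1a3 and Fabp7, passed the test as lower. In the same comparison the myelin gene Mal (1 of 8) and the endothelial gene Pecam1 (1 of 5) passed as higher. The 5 Purkinje genes summed to 9407 ± 297 CPM in Cre control (9055 to 9777) and 8415 ± 262 in cKO (8087 to 8735), also without overlap. Taken singly, 0 of 5 passed or had an unadjusted p under 0.05 (median log2 fold change -0.03). The 8 myelin genes summed to 13402 ± 832 CPM in Cre control (12394 to 14441), 11035 ± 942 in NDI1 control (9903 to 12379), 13947 ± 2677 in cKO (11763 to 18474) and 10074 ± 668 in cKO+NDI1 (9341 to 11309). The sums of both groups with NDI1 lay below Cre control without overlap. Of the 8 genes, 4 (Mbp, Mobp, Cldn11 and Mal) passed as lower in cKO+NDI1 against cKO. Between the 2 control groups all 8 were lower with NDI1, with a median log2 fold change of -0.20, but 0 passed, and 4 had an unadjusted p under 0.05. The part of these shifts in the members' differences was not tested.

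Sirt2, which is known to be rich in myelinating cells, stood at 177, 198 and 248 CPM (lowest, median and highest) in cKO, 188, 205 and 215 in Cre control, 174, 195 and 206 in NDI1 control and 178, 188 and 196 in cKO+NDI1. The cKO group had the widest range, as it did for the summed myelin genes, and overlapped the other 3. In cKO+NDI1 against cKO, Sirt2 was at -0.14 ± 0.07 (adjusted p = 0.614 in edgeR's test). The part of the myelin shift in this difference was not tested.

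**Figure D4:**
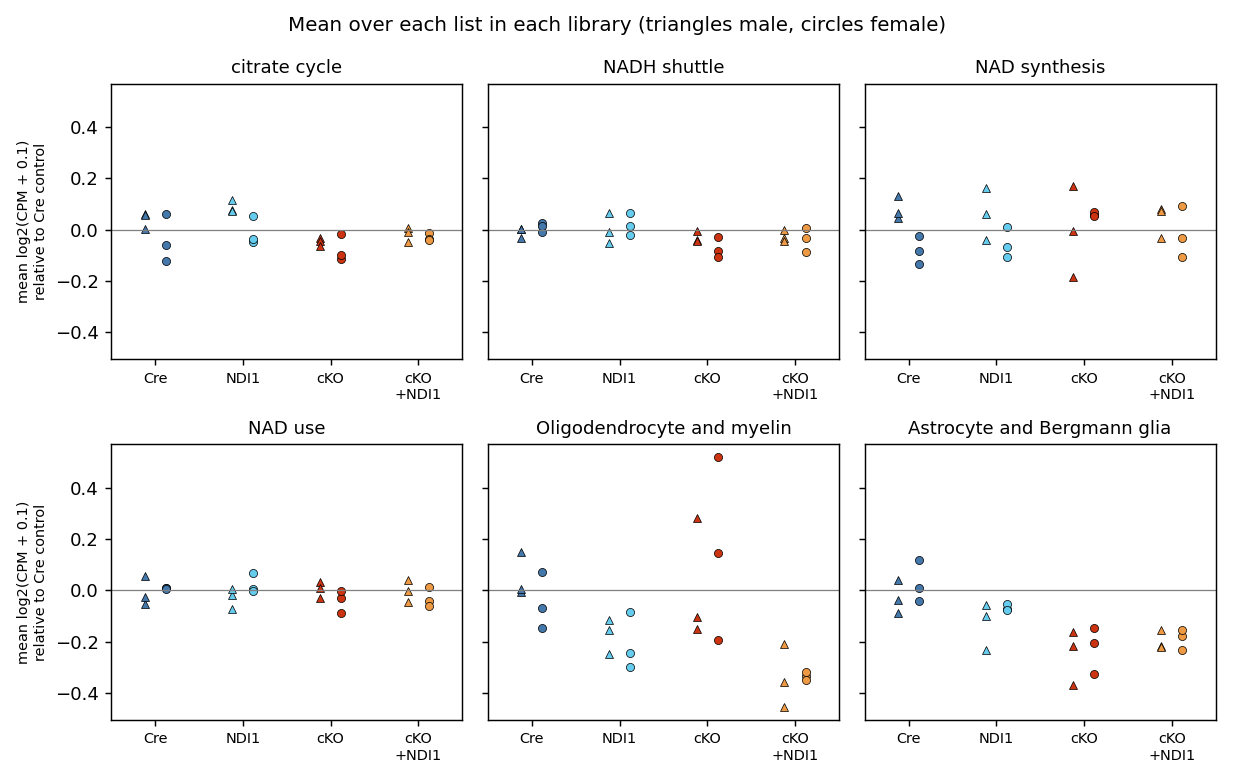
Mean log2 level of each role's genes and of 2 marker lists in each library, relative to the Cre control mean (triangles male, circles female). The roles stay within 0.2 of 0, while the myelin list reaches 0.52 in 1 cKO library and -0.46 in 1 cKO+NDI1 library.

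Of 56 further genes of these pathways, such as succinate dehydrogenase, pyruvate dehydrogenase, lactate dehydrogenase and the other sirtuins, 49 were tested. In edgeR's test none passed between the 2 controls, between either knockout group and the control that matches it for NDI1, or between the 2 knockout groups. At an unadjusted p under 0.05 there were 10 of the 49 in cKO against Cre control, 5 higher and 5 lower, a share near the 18.5% of all genes. Of the 49, 37 had a negative log2 fold change there (75.5%, against 51.9% of all genes), with a median of -0.05. In cKO+NDI1 against NDI1 control 29 did (59.2%, against 53.1%). In cKO against Cre control 1 of the 49 had groups that did not overlap, as lower, against 2.69% of all genes in either direction. In cKO+NDI1 against Cre control, where 1.25% of all genes passed, 0 passed as higher and 1 as lower, Slc16a1, the monocarboxylate transporter that moves lactate and pyruvate across cell membranes. Its lowest, median and highest levels were 70.8, 81.1 and 94.6 CPM in Cre control, 70.5, 77.7 and 87.8 in NDI1 control, 64.9, 68.1 and 79.4 in cKO and 56.7, 62.5 and 77.9 in cKO+NDI1. Both knockout groups were low, and both overlapped the controls. The log2 fold change was -0.33 ± 0.08 (adjusted p = 0.0389 in edgeR's test) in cKO+NDI1 against Cre control and -0.24 ± 0.08 (adjusted p = 0.0927) in cKO against Cre control. The call was lost in 9 of the 24 fits without 1 library, namely without Cre control M2, M3, F1, F2 or F3 or cKO+NDI1 M1, M2, M3 or F2, with an adjusted p from 0.0226 to 0.133 over the 24.

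Sex was a term in the main edgeR fit and in those of DESeq2 and limma-voom. Between 12 males and 12 females, 0 of 38 members passed in edgeR's test, DESeq2 and limma-voom, where 0.085%, 0.248% and 0.0915% of all genes did. At an unadjusted p under 0.05 there were 10 members (26.3%; 8 higher and 2 lower in males), against 16.9% of all genes. The smallest p was that of Suclg2, at 21.1 ± 1.34 CPM in males and 18.1 ± 1.67 CPM in females (n = 12 each), a log2 difference of 0.22 ± 0.05 (adjusted p = 0.201). Idh2 was at 0.21 ± 0.07 and Naprt at 0.21 ± 0.10 in the same direction, and Nmnat2 at -0.13 ± 0.05 in the other (adjusted p = 0.291 for each).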

How the data were processed

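RNA came from whole cerebellum of 24 mice, per the labels' protocols. The submitters' processing notes list STAR, HTSeq, Trimmomatic and bcl2fastq and the build mm10; versions, strand use and annotation are not given in the sources used here. The deposited table holds raw read counts per gene, with no normalization by the authors; its gene length column equals the GENCODE M21 exon union for 20887 of 42462 genes, and lengths were taken from M21 instead. In 60 pairs of libraries from the same group, none was a copy (chi-square at least 4.4 per degree of freedom), and 0 columns were left unused. Symbols come from the same annotation.

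Counts were TMM-scaled, low genes removed with filterByExpr, and 15300 genes tested with edgeR 4.0.16's robust quasi-likelihood F test (R 4.3.3) in 1 model of genotype group and sex. Benjamini-Hochberg adjustment ran over all genes tested, with a threshold of 0.05. SE is the fold change divided by the root of F, and 95% intervals use the fit's degrees of freedom. The fits were checked on simulated counts with planted differences larger than those of the members, so the check does not cover differences as small as theirs. Alternatives were RLE or library size scaling, no filter, DESeq2 1.42.0, limma-voom (limma 3.58.1), a replicate block, 1 surrogate variable (sva 3.50.0), thinning, single libraries left out, only the groups compared, and each sex alone.

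Full values are given for a member that passes, or else for the 1 member per role with the smallest p in cKO against Cre control (Dld, Mdh2, Nadk, Cd38). Others named with an adjusted p, and Sirt2, were chosen after their values were seen. The members and lists were chosen with earlier results of these data known. The 56 further pathway genes include 2, Pnp and Adprs, with no match by symbol.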

Additional observations from a re-analysis of the deposited data

Results flagged for a closer look

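In 5 of 152 groups of 6 libraries checked (38 genes in 4 groups), 1 library stood apart from the other 5 by more than 0.625 of the group's range on the CPM scale; chance alone gives about 1 in 20 such groups. Aco1, the cytosolic aconitase, was at 50.3 CPM in Cre control F3 (next 41.3) and at 49.5 CPM in cKO M3 (next 39.9). Mdh2 was at 427 CPM in cKO+NDI1 M1 (next 392), and Nampt at 119 CPM in NDI1 control M1 (next 93.7). Slc25a11 was low in cKO F1, at 117 CPM, where the next library was at 146 CPM. Their causes were not tested.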

How the results depend on the processing

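The count of members past the threshold was 0 in all 7 comparisons and stayed 0 in 66 of 72 settings that kept every library or one sex. DESeq2 gave 2 in cKO against Cre control and 1 in cKO+NDI1 against Cre control. With 1 surrogate variable it was 11 in cKO against Cre control (3 higher: Idh2, Slc25a22 and Nadk; 8 lower: Idh3b, Ogdh, Dld, Suclg1, Sucla2, Mdh1, Mdh2 and Slc25a11), where 20.8% of all genes passed, 3 in cKO+NDI1 against cKO (Idh3b, Nadk, Sirt3; 3.09% of all genes), 4 in cKO+NDI1 against Cre control (Idh2, Dld, Slc25a12, Sirt3; 10.5% of members and 10.6% of all genes) and 1 in NDI1 control against Cre control (Sirt3; 1.85% of all genes); the cause was not tested. Leaving out 1 library gave 0 to 1 members in cKO against Cre control (5 of 24 fits with 1) and 0 in the other 6 comparisons. In males alone the log2 fold change in cKO against Cre control was -0.00 for Nadk and 0.07 for Cd38, against 0.14 and -0.06 in both sexes. These male values were 1 end of the range over 11 settings, -0.00 to 0.26 for Nadk and -0.21 to 0.07 for Cd38. In males and females alone it was 0.08 and 0.36 for Idh2, 0.27 and 0.04 for Slc25a22, and -0.07 and -0.30 for Ogdh, and for Dld in cKO+NDI1 against NDI1 control -0.20 and -0.03; the difference between sexes was not tested. With 1 surrogate variable, Sirt3 in NDI1 control against Cre control was at 0.22 in place of 0.34 and Idh2 in male against female at 0.09 in place of 0.21. Slc16a1 lost its call with library size alone (adjusted p = 0.061), without the filter (0.0761), thinned (0.0528) and in each sex alone (males 0.303, females 0.452).

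Over all genes, cKO against Cre control called 745, but 1157 with DESeq2, 3176 with the surrogate variable, 425 without the filter, 263 with only those 2 groups, 38 in males and 364 in females. For cKO+NDI1 against Cre control, 191 became 511 with DESeq2, 1616 with the surrogate variable, 87 without the filter, 64 thinned, 14 in males and 2 in females. For cKO+NDI1 against cKO, 32 became 107, 473, 21, 25, 2 and 2, and 13 with only those 2 groups; without 1 library it was 10 (cKO+NDI1 M2) to 42 (cKO M3). For NDI1 control against Cre control, 1 became 79 with DESeq2 and 37 without NDI1 control M3. In cKO against Cre control the calls were 468 higher and 277 lower, and 1509 and 1667 with the surrogate variable. With library size alone, 22 of 38 members were negative in that comparison in place of 25. In cKO+NDI1 against Cre control it was 17 in place of 26.

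With a replicate block, 0 members passed in each of the 6 genotype comparisons; over all genes, cKO+NDI1 against cKO called 20 in place of 32. Same-numbered libraries had deviations correlated between -0.47 and 0.47, and at most 2 of 6 correlated best with their own number. These values do not show that the numbers pair the libraries, and they cannot exclude it. Whether same-numbered libraries shared a litter or batch was not tested. Counts limit Nmnat3 most, with as few as 12 reads.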
